A study of Saccharomyces cerevisiae with 18 samples.

Results

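Cultures of the same budding yeast strain, grown and treated with *α*-pheromone in separate experiments, were compared, 1 culture against 1, at the doses that both experiments shared. Each experiment had 9 libraries, and 7 doses (0, 1, 5, 10, 20, 50 and 500 nM) occurred in both, so that 14 of the 18 libraries formed 7 dose-matched pairs. The 4 other libraries stayed outside the pairing. They were the 15 and 100 nM libraries of experiment 1 and the 0.05 and 0.25 nM libraries of experiment 2. The label of the 0.05 nM library writes its unit as nm, and it was read as nM. All genes with a mean of at least 1 RPKM (reads on a gene scaled to its length and to the mapped reads of the library) over the 14 libraries were tested, which left 5989 of 7126 genes.

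Both experiments used *MAT***a** cells of strain yAA95, a SEY6210a derivative with a *PFUS1*-GFP reporter at *ura3* and with *bar1Δ*, *mfα1Δ*, *mfα2Δ* and *arg4Δ* deletions. The parent also lacks functional *KSS1*, *HIS3*, *TRP1*, *LEU2*, *LYS2*, *URA3* and *SUC2* alleles. Cells grew in synthetic medium with glucose and were collected 60 min after pheromone addition, and RNA was sequenced after depletion of ribosomal RNA. Within an experiment the flasks were aliquots of 1 culture. The 7 pairs are therefore repeats of 1 culture against 1 culture, and p-values measure the spread between aliquot pairs. The sample labels do not say which libraries shared a preparation or a sequencing lane, so that these cannot be told apart from culture.

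Genes of the glycolytic, iron, phospholipid and ribosomal programmes are sensitive to the growth state of a yeast culture. Glycolytic enzymes and ribosomal proteins are among the most abundant transcripts of cells growing on glucose. Iron uptake genes are switched on by Aft1 when iron is scarce, and *INO1* and related phospholipid genes are activated by Ino2 and Ino4 when inositol is scarce. Cell wall mannoproteins carry long stretches rich in serine and threonine, to which sugars are attached.

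Low RPKM values came in whole multiples of 1 read, which gave totals per library between 4869999 and 12340000 mapped reads in experiment 1 (median 10280000) and between 9720000 and 16660000 in experiment 2 (median 11810000). For a gene of 1 kb, 3 reads correspond to 0.243 to 0.616 RPKM in experiment 1 and 0.180 to 0.309 RPKM in experiment 2, a floor that covers counting error only. The deleted or marker genes *HIS3*, *TRP1* and *SUC2* were listed at 0 at all shared doses of both experiments, and *BAR1* reached at most 0.193 RPKM in experiment 1 and 0.288 RPKM in experiment 2. The **a**-cell receptor gene *STE2* had 473 to 1188 RPKM in experiment 1 and 486 to 1137 RPKM in experiment 2. *STE3*, the receptor gene of *MATα* cells, had 1.17 to 2.39 RPKM in experiment 1 and 1.73 to 4.20 RPKM in experiment 2. The 0 nM pair differed most, with an SD of the differences over genes of 0.42 on the log2 scale, against 0.30 to 0.37 at the other doses.

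Few genes differed strongly between the experiments. At an adjusted p under 0.05 and a difference of at least 2-fold (limma on log2(RPKM + 1) with dose as the pairing factor, Benjamini-Hochberg adjustment), 25 genes were higher in experiment 1 (0.417% of those tested) and 7 were lower (0.117%). Of these, 21 and 6 kept their sign at all 7 doses, as 24.8% of all genes did upwards and 5.91% downwards. On the log2(RPKM + 1) scale only 4 genes (0.0668%) differed by at least 2-fold at each dose, all higher in experiment 1. They were *TMA23* and 3 open reading frames of the Ty3 retrotransposon (*YGR109W-B*, *YIL082W-A* and *YIL080W*). This scale understates the differences of low genes such as *PRY3*, so the count would be different on RPKM itself. Small shifts were common: without the fold limit 1798 genes were higher in experiment 1 (30.0%) and 510 lower (8.52%), of which 1669 and 486 differed by less than 1.5-fold. The median over all genes was 0.06 on the log2 scale. This split depended on scaling: after centring each library on its median, which moved that median to −0.04, 797 genes were higher and 1465 lower.

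Some of the coding genes called higher in experiment 1 hold stretches of few distinct triplets and others do not. Windows of 5 of them, chosen after their values were seen, are shown for that range. Each is the 50-base window of lowest triplet entropy (the Shannon entropy, in bits, of overlapping base triplets) in the R64 genome, and capitals mark bases in triplets that occur at least 4 times in the window. *INO1* and *PGK1*, both lower in experiment 1, are given for contrast.
TMA23: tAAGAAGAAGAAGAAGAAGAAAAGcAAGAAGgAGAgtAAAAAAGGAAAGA
LSO2: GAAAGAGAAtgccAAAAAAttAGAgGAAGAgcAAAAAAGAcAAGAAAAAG
SED1: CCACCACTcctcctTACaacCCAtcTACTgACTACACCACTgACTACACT
SRL1: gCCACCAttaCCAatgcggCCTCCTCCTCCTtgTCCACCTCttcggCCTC
YBL081W: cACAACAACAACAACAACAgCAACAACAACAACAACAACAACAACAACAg
INO1: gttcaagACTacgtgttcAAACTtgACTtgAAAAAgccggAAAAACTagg
PGK1: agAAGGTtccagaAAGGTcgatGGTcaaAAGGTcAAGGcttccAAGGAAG
The *TMA23* window (chrXIII:804926-804975, plus strand) held 13 distinct triplets and 45 capital bases, the *LSO2* window (chrVII:836476-836525, minus strand) 20 and 40, the *SED1* window (chrIV:601253-601302, plus strand) 21 and 37, and the *YBL081W* window (chrII:72346-72395, plus strand) 7 and 47. The *INO1* window (chrX:135734-135783, minus strand) held 27 distinct triplets and 23 capital bases, and the *PGK1* window (chrIII:138126-138175, plus strand) 23 and 29. The *SRL1* window (chrXV:797886-797935, plus strand), with 25 and 33, thus held more distinct triplets than that of *PGK1*.

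*TMA23* (YMR269W, chrXIII:804456-805091), which encodes a nucleolar protein of ribosome biogenesis, had 4.41, 5.58 and 13.9 RPKM (lowest, median and highest of 7) in experiment 1, against 0.349, 0.911 and 2.37 RPKM in experiment 2. The experiments did not overlap at the shared doses, but the 0.05 nM library of experiment 2 had 5.25 RPKM, above the lowest values of experiment 1. The lowest value of experiment 2, at 50 nM, was near the floor. In that library 3 reads on 1 kb were 0.221 RPKM, and the floor is higher for *TMA23*, with 636 bases. Its levels in experiment 2 thus rest on few reads. The log2 difference was 1.96 (standard error 0.15, adjusted p = 4.11e-05), and it lay between 1.38 at 20 nM and 2.69 at 1 nM. *LSO2* (YGR169C-A, chrVII:836387-836665), whose product binds ribosomes, had 65.7, 74.7 and 97.3 RPKM in experiment 1, against 24.7, 30.7 and 38.8 RPKM in experiment 2. Its log2 difference of 1.31 (standard error 0.08, adjusted p = 1.52e-05) also came without overlap at the shared doses. The nucleolar protein gene *PXR1* (YGR280C, chrVII:1050910-1051725) overlapped between the experiments, with 11.3, 22.3 and 35.0 RPKM in experiment 1 and 4.75, 9.15 and 14.1 RPKM in experiment 2, and its difference was 1.21 (standard error 0.13, adjusted p = 0.000133).

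**Figure D1:**
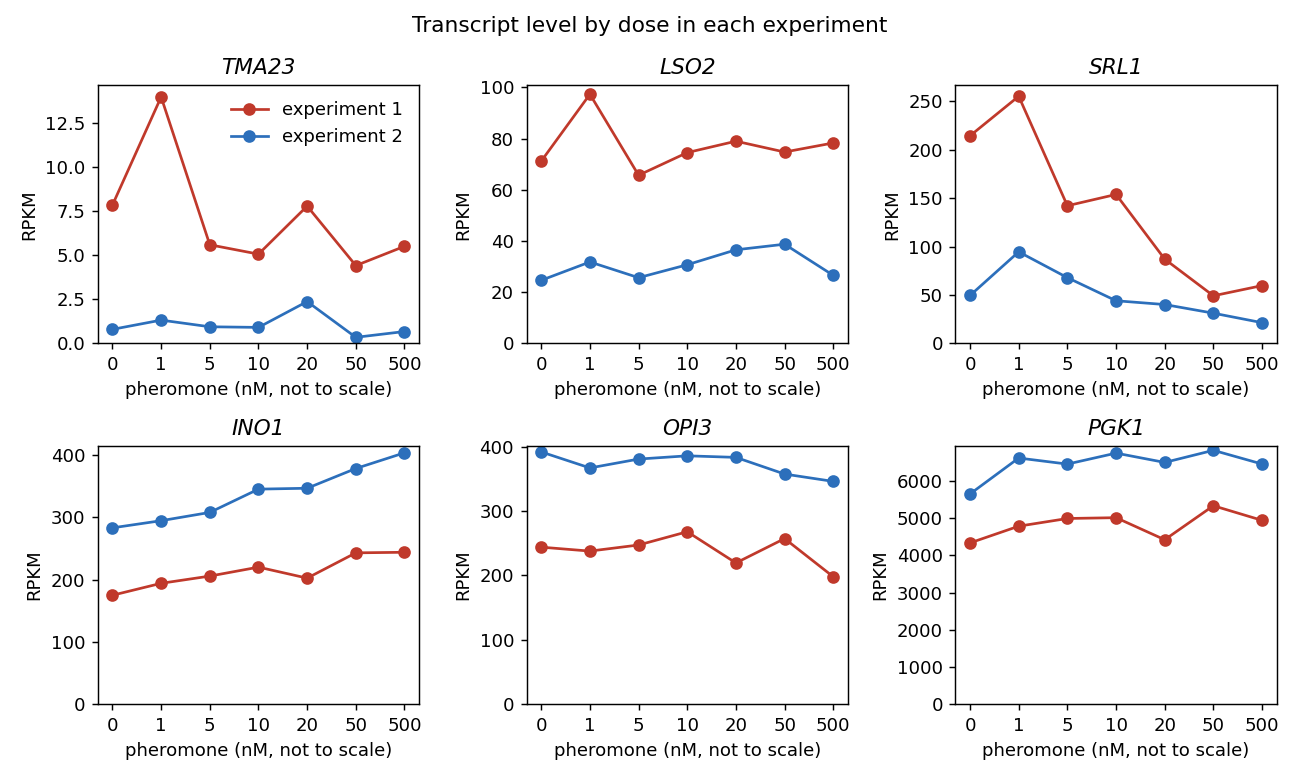
RPKM (y axis, from 0) at the 7 shared doses (x axis, nM, not to scale) for 3 genes higher in experiment 1 (top row) and 3 lower (bottom row), with experiment 1 in red and experiment 2 in blue, 1 library per point. *TMA23*, *LSO2*, *INO1*, *OPI3* and *PGK1* do not overlap between the experiments at these doses, whereas *SRL1* does because its level differs with dose.

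Several genes of cell wall and cell surface proteins were also called, and they are grouped here after their values were seen. No list of wall proteins at large was tested. At any size, 3 of 12 seripauperin and anaerobic cell wall genes were higher and 1 lower. Of 5 flocculin and filamentation genes 3 were higher and 1 lower, and neither list held a gene called at 2-fold. Over all genes 30.0% were higher and 8.52% lower. *SRL1* (YOR247W, chrXV:797676-798308), encoding a mannoprotein, had 49.3, 142 and 255 RPKM in experiment 1, against 21.5, 44.1 and 94.7 RPKM in experiment 2, a log2 difference of 1.36 (standard error 0.15, adjusted p = 0.000143). The open reading frame *YOR248W* was listed at a like difference of 1.27 and shares this locus, so the pair is not independent. *PRY3* (YJL078C, chrX:291336-293981), a cell wall protein of the CAP family, had 4.56, 6.83 and 11.9 RPKM in experiment 1, against 1.498, 2.54 and 2.69 RPKM in experiment 2, without overlap and with a log2 difference of 1.31 (standard error 0.12, adjusted p = 9.19e-05). The wall protein genes *CIS3* (1.13), *CCW14* (1.12) and *SED1* (1.10) were called too. So were *AGA1* (1.09), the anchor of the **a**-agglutinin, and *FIG2* (1.10), a mating-specific surface protein, but both were at 0.99 after median centring, and *FIG2* was at 0.93 without the 5 nM pair. *YBL081W*, of unknown function, had 4.81 to 13.0 RPKM in experiment 1 and 1.36 to 3.94 RPKM in experiment 2, with a log2 difference of 1.38. *TOS6* (1.18), a surface protein gene of the G1 programme, and *RRP14* (1.02), a ribosome biogenesis gene, were called and had the same sign at all 7 doses. The *TOS6* difference was uneven, with 1.25 to 2.19 at 5, 10 and 20 nM and 0.32 to 0.85 at the other doses. At 50 and 500 nM *TOS6* had at most 0.667 RPKM in either experiment. Its call was lost with a pseudocount of 5 (0.93) and with dose left out of the model. *SVS1* (1.09), *YMR315W-A* (1.01) and the tRNA genes *tT(AGU)C* (1.26) and *tH(GUG)G2* (1.22) were the 4 higher genes that did not keep their sign at every dose.

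Ty3 is a retrotransposon whose transcription is known to respond to pheromone. *YGR109W-B* (chrVII:707610-712254) had 6.87, 61.7 and 418 RPKM in experiment 1, against 1.13, 18.6 and 89.2 RPKM in experiment 2. Its dose range was wide in both, so that the levels overlapped, but the matched differences of 1.24 to 2.40 did not reach 0 (log2 difference 1.83, standard error 0.13, adjusted p = 2.87e-05). *YIL082W-A* and *YIL080W*, which belong to a second, near-identical copy, had log2 differences of 1.81 and 1.80. These copies and the overlapping *YGR109W-A* and *TY3A-I* share reads, and their separate values are uncertain. Of 33 transposable element frames tested, 18 were higher and 0 lower at any size by limma, with a median of 0.35 (30.0% higher over all genes). With each library centred within bins of gene length, 10 of the 33 were higher, where 12.4% of all genes were.

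**Figure D2:**
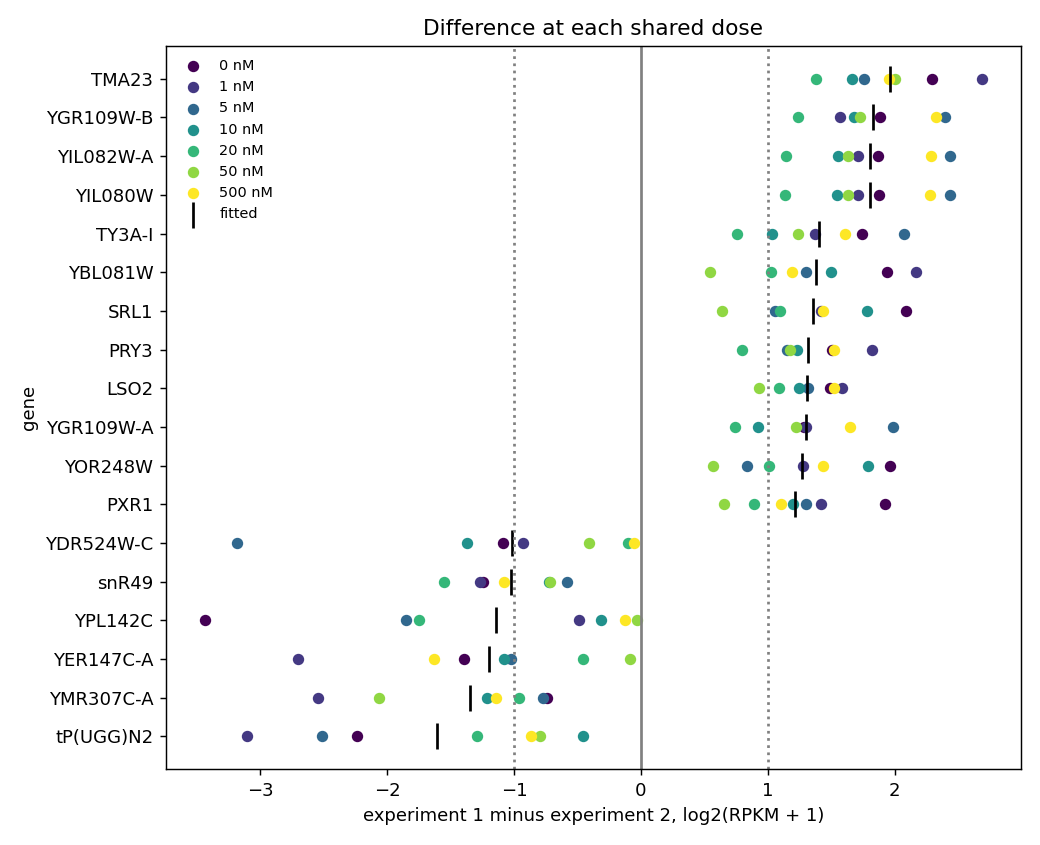
Difference between experiment 1 and experiment 2 in log2(RPKM + 1) (x axis) for the genes of largest difference (y axis), with 1 coloured point per shared dose, a black tick for the fitted difference and dotted lines at 2-fold. *TMA23* and 3 Ty3 frames lie beyond 1 at every dose, and the lower genes spread more widely, *YPL142C* between −3.44 and −0.03.

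The 7 genes lower in experiment 1 were tRNA genes, short or unannotated reading frames and 1 small nucleolar RNA. *snR49* (chrXIV:716120-716284), an H/ACA small nucleolar RNA that guides pseudouridylation, had 100.7, 198 and 458 RPKM in experiment 1, against 295, 346 and 1101 RPKM in experiment 2 (log2 difference −1.02, standard error 0.11, adjusted p = 0.000136). *tP(UGG)N2*, *YMR307C-A*, *YER147C-A*, *YPL142C* and *YDR524W-C* had medians of 1.26 to 3.05 RPKM in experiment 1 and 3.61 to 8.28 RPKM in experiment 2, and the levels of each overlapped. *tG(GCC)D2* (−1.70) was lower at 6 of 7 doses. The call of *snR49* was lost without the 0 nM (−0.99), 1 nM (−0.98) or 20 nM (−0.94) pair, that of *YER147C-A* without the 1 nM pair (−0.94), and those of *YPL142C* and *YDR524W-C* without any 1 of 4 pairs each. Of 75 small nucleolar RNAs, 2 were higher and 26 lower at any size (median −0.23), against 30.0% higher and 8.52% lower over all genes. Of 6 spliceosomal RNA entries 5 were lower and 0 higher by limma. After quantile normalization 20 of the 75 and 2 of the 6 were lower (medians −0.15 and −0.16), against 16.0% of all genes. Small nucleolar RNAs took 2.91% to 3.62% of the reads in experiment 1 and 3.80% to 4.57% in experiment 2. *SCR1*, the RNA of the signal recognition particle, took 2.17% to 2.94% in experiment 1 and 2.96% to 4.03% in experiment 2. Whether these shares play a part in the other differences was not tested.

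None of the nutrient programmes held a gene called at 2-fold, and their differences are given here at any size, with genes named for their values after these were seen. *INO1* (YJL153C, chrX:134332-135933), the inositol phosphate synthase, had 175, 206 and 244 RPKM in experiment 1, against 283, 345 and 404 RPKM in experiment 2. The experiments did not overlap, and the difference was between −0.77 and −0.58 at every dose (log2 difference −0.66, standard error 0.03, adjusted p = 4.34e-06). *OPI3* (YJR073C, chrX:572315-572935), a phospholipid methyltransferase, had 198, 244 and 268 RPKM in experiment 1, against 346, 381 and 391.96 RPKM in experiment 2 (log2 difference −0.65, standard error 0.04, adjusted p = 2.76e-05). *CHO1*, the phosphatidylserine synthase, differed by −0.44 (standard error 0.03, adjusted p = 2.87e-05). Of 17 inositol and phospholipid genes 9 were lower and 3 (*ACC1*, *FAS1* and *INO2*) higher, against 30.0% higher and 8.52% lower over all genes, and 8 of the lower ones were lower at all 7 doses. The median of the list was −0.08, against 0.06 over all genes, and after median centring 13 were lower and 0 higher by limma, against 24.5% and 13.3% of all genes. After quantile normalization 10 were lower and 3 higher, against 16.0% of all genes in each direction.

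The promoters of *INO1* and *OPI3* are shown because both hold the core of the inositol-responsive element, CATGTG, on either strand (capitals). They run from 250 bases before to 50 bases after the first base of the coding sequence, in R64, on the minus strand, at chrX:135884-136183 and chrX:572886-573185.
INO1: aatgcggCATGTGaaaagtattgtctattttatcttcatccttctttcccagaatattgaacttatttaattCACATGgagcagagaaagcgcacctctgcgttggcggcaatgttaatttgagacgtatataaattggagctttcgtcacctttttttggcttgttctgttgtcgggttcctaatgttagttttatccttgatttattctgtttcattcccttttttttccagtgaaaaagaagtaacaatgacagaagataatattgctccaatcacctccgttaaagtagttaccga
OPI3: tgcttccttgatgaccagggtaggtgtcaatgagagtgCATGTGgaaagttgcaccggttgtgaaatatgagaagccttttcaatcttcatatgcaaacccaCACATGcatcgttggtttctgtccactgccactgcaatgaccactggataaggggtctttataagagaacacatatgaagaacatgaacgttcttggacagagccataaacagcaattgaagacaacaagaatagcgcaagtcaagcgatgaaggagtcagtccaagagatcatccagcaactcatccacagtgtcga
Both windows held 2 copies. The core occurred in the windows of 6 of the 9 lower phospholipid genes, 1 of the 3 higher and 3 of the 5 others, against 6.87% of the 5506 coding genes tested. The Aft1 core TGCACC, searched on both strands, occurred in 5 of 13 lower iron genes, both of the 2 higher and 4 of the 11 others, against 6.79% of coding genes. The lists were drawn by known regulator, Ino2 and Ino4 or Aft1, so a share above that of all coding genes follows from that choice. Within the lists the core was about as common in lower genes as in the others not called. The shares were 66.7% against 60.0% for phospholipid genes and 38.5% against 36.4% for iron genes.

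Glycolytic transcripts were lower in experiment 1 as deposited. *TDH1*, a glyceraldehyde phosphate dehydrogenase, had 43.2, 50.8 and 60.6 RPKM in experiment 1, against 64.04, 81.8 and 94.1 RPKM in experiment 2 (log2 difference −0.62, standard error 0.04, adjusted p = 2.87e-05). *PGK1*, phosphoglycerate kinase, had 4338, 4945 and 5338 RPKM in experiment 1, against 5655, 6502 and 6828 RPKM in experiment 2 (log2 difference −0.42, standard error 0.03, adjusted p = 3.58e-05). Neither gene overlapped. Of 16 glycolytic genes, 11 were lower, each at all 7 doses, and 0 were higher by limma, with a median of −0.23 (8.52% lower and 30.0% higher over all genes). After median centring the median was −0.34, with 0 higher and 14 lower by limma (13.3% and 24.5% of all genes). With each library centred within bins of gene length it was −0.295, with 0 higher and 15 lower by limma (12.4% and 20.3%). After quantile normalization it was 0.04, with 2 higher and 4 lower (16.0% of all genes in each direction). The list was thus lower as deposited and after either centring, but not after quantile normalization. Of 138 cytosolic ribosomal protein genes 88 were lower and 6 higher (median −0.13), and after quantile normalization 40 were lower and 16 higher (median −0.03). After median centring 116 were lower and 1 higher, and with centring within length bins 100 were lower and 2 higher.

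Iron regulon genes were lower more often than higher, 13 against 2 of 26, with a median of −0.14, where 8.52% of all genes were lower and 30.0% higher. *TIS11* (−0.69, adjusted p = 0.000198), which degrades mRNAs of iron-using proteins, *HMX1* (−0.44, adjusted p = 0.000397), a heme oxygenase, and *FRE1* (−0.43, adjusted p = 0.000329), a ferric reductase, were lower at all 7 doses. The 2 that were higher, *FIT1* (0.41) and *FIT3* (0.63), encode cell wall mannoproteins that retain siderophores. Of 8 NAD synthesis genes, 4 were lower and 1 higher beside the same shares of all genes, with *BNA1* at −0.43 (standard error 0.03, adjusted p = 2.76e-05).

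The other programmes are set beside the 30.0% of all genes higher and 8.52% lower as deposited, and the 12.4% higher and 20.3% lower with each library centred within bins of gene length. Of 53 ribosome biogenesis genes 34 were higher and 1 lower as deposited (median 0.12), and 9 and 8 after length centring. Of 28 sulfur and methionine genes 11 (39.3%) were higher and 0 lower by limma (median 0.10), and 4 and 6 after length centring. Of 15 arginine genes 9 were higher and 1 lower (median 0.13), and 2 and 1 after length centring. Leucine and branched-chain synthesis had 7 higher and 2 lower of 12 (median 0.14), and 5 and 4 after length centring, with *LEU1*, the isopropylmalate isomerase, at 0.29 as deposited (standard error 0.03).

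The mating and cell cycle lists are set beside the same shares of all genes. These were 30.0% higher and 8.52% lower as deposited, and 12.4% and 20.3% after length centring. Of 30 pheromone-induced mating genes 13 were higher and 0 lower by limma as deposited (median 0.26), and 7 and 1 after length centring. Of 20 G1 and S phase genes 8 were higher and 0 lower by limma (median 0.27), and 6 and 4 after length centring. Of 18 G2 and M phase genes 10 were higher and 1 lower (median 0.22), and 5 and 2 after length centring. *CLN2*, a G1 cyclin, was higher by 0.69 (standard error 0.05, adjusted p = 2.87e-05).

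After median centring of each library, 13.3% of all genes were higher and 24.5% lower, and the counts of further lists changed too. Of 37 respiratory chain and ATP synthase genes 6 were higher and 8 lower as deposited (median −0.02), and 0 and 23 after median centring by limma. Of 33 proteasome genes 4 and 4 became 1 and 14, and of 31 stress and reserve carbohydrate genes 6 and 2 became 1 and 8. After quantile normalization 16.0% of all genes were called in each direction. The respiratory list then had 5 higher and 10 lower, the proteasome list 4 and 4, and the stress list 0 and 5 by limma. The phosphate regulon had 0 higher and 1 lower of 14 by limma as deposited, and 0 and 4 after median centring. Glucose-repressed carbon genes had 0 and 1 of 23 by limma, and 0 and 3 after median centring.

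**Figure D3:**
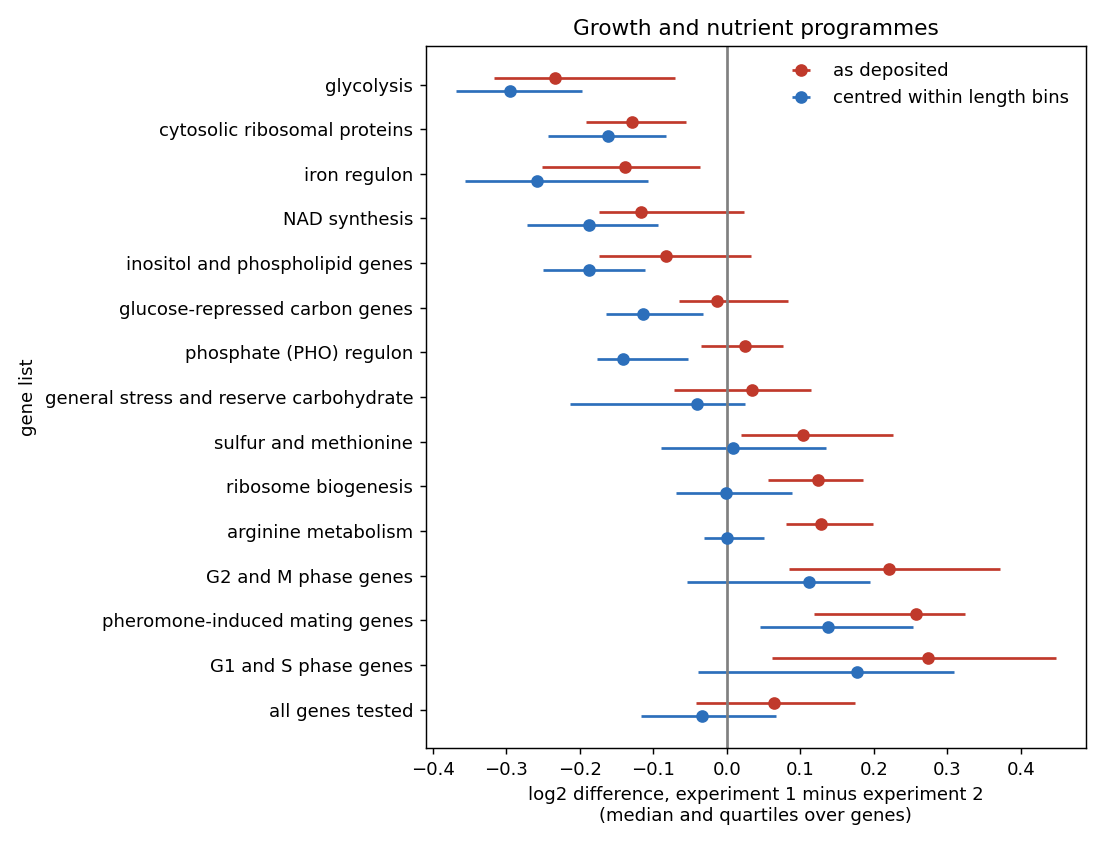
Median (points) and quartiles (bars) over genes of the log2 difference, experiment 1 minus experiment 2 (x axis), for 14 gene lists and all genes (y axis), as deposited in red and centred within bins of gene length in blue. Glycolysis lies at −0.23 as deposited (0.04 after quantile normalization, not drawn), all genes at 0.06, and the ribosome biogenesis, arginine and sulfur lists lie near 0 after centring.

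The difference varied with features of the coding sequence across all 5506 coding genes. In quintiles of coding length the median log2 difference was −0.03, 0.02, 0.05, 0.09 and 0.17, low to high, and 11.4% of the shortest quintile against 68.7% of the longest were higher in experiment 1. In quintiles of lowest triplet entropy it was 0.16, 0.10, 0.07, 0.03 and −0.03, and in quintiles of serine and threonine codons 0.01, 0.05, 0.07, 0.08 and 0.15. Long genes have more windows, and length also varies within a quintile. Within the shortest quintile the lowest-entropy genes (129) had a median of 0.08 and the highest-entropy genes (453) of −0.07. Within the longest quintile these were 0.21 (405 genes) and 0.11 (16 genes only). Whether entropy plays a part apart from length was not tested. Spearman's rho across genes, which are not independent replicates, was 0.42 with length, −0.40 with entropy, 0.28 with serine and threonine codons and −0.15 with GC content. Of the 15 coding genes called higher, 14 lay in the lowest-entropy quintile or in the highest serine and threonine quintile, against 34.5% of all coding genes, a pairing of features chosen after the values were seen. The exception was *YMR315W-A*. The called genes ran against the trends with length and GC content: their median coding length was 783 bases, against 1224 over all coding genes, and 9 of the 15 lay in the quintile of highest GC content.

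**Figure D4:**
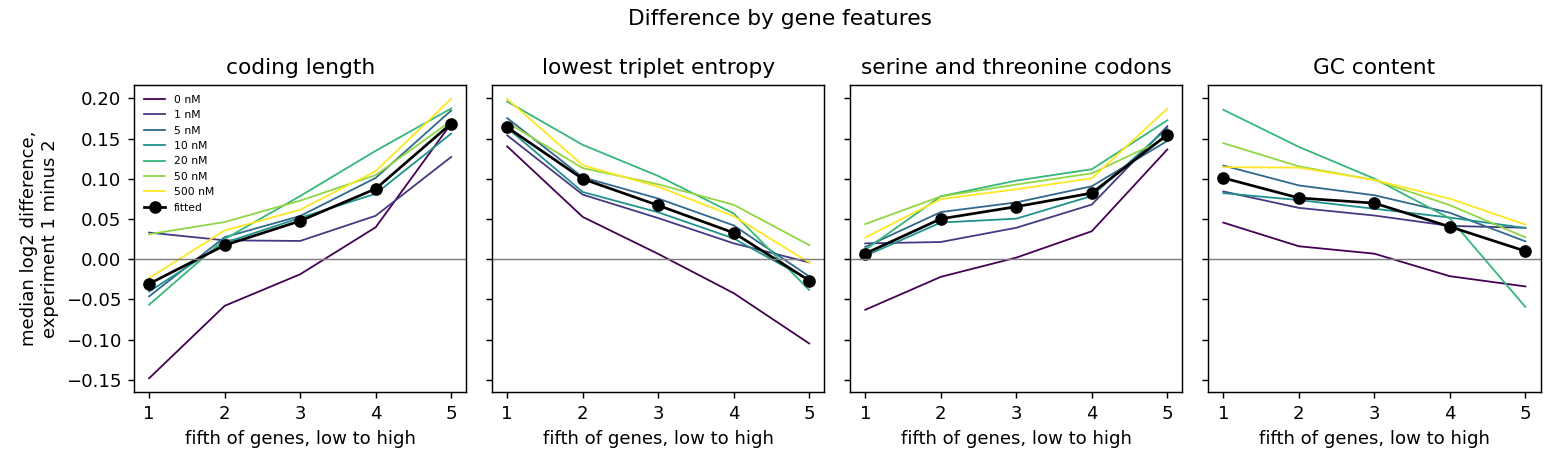
Median log2 difference, experiment 1 minus experiment 2 (y axis), in quintiles of the coding genes ordered from low to high (x axis) by coding length, lowest triplet entropy, share of serine and threonine codons and GC content. Coloured lines are the 7 doses and black points the fitted difference, which runs from −0.03 to 0.17 with length, and the 0 nM line lies lowest in most quintiles.

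The offsets did not vary with dose in a way that passed the test. A slope of the difference on dose rank passed an adjusted p of 0.05 for 0 genes in limma (464 genes, 7.75%, at an unadjusted p under 0.05), and the contrast of 5 to 20 nM with the other doses for 0 genes (360 genes, 6.01%). The smallest adjusted p values in limma were 0.517 and 0.734. With 7 differences per gene, these tests do not show that the offsets were constant: that of *TOS6* ran from 0.32 to 2.19. The 4 libraries outside the pairing come from the same cultures and are given as levels, with no test. *INO1* had 211 and 249 RPKM in the 15 and 100 nM libraries of experiment 1, and 263 and 308 RPKM in the 0.05 and 0.25 nM libraries of experiment 2. *LSO2* had 77.1 and 66.8 RPKM in those of experiment 1, and 37.8 and 30.0 RPKM in those of experiment 2. *SRL1* did overlap, with 94.0 and 43.6 RPKM in those of experiment 1, and 82.1 and 84.3 RPKM in those of experiment 2. The doses of these libraries are not matched.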

How the data were processed

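RNA was sequenced in 18 libraries of *MAT***a** yeast, as strand-specific single-end reads after depletion of ribosomal RNA. The authors mapped the reads to the yeast genome and deposited RPKM values per gene, in 1 table per experiment. The methods name Bowtie 2, whereas the submitters' processing notes list Bowtie 0.12.2 and sacCer3, and how multiply mapping reads were treated is not given in the sources used here. Values of 151 genes listed more than once were kept once, and 6162 of 7126 genes matched R64 (sacCer3) by systematic name or symbol.

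The 7 dose-matched pairs were compared on log2(RPKM + 1) by limma 3.58.1 (R 4.3.3), with dose as pairing factor, an intensity trend and Benjamini-Hochberg adjustment, for genes with a mean of at least 1 RPKM. Differences on this scale understate those of low genes. The fit was tested on simulated data. Dose, not a replicate number, pairs the libraries. Named genes are up to 12 per direction of largest difference with the same sign at all 7 doses, the deleted and marker genes, and programme genes at any size. The any-size call and centring within 20 length bins were additions made once the data were known. The gene lists and the comparison itself were chosen with earlier results of these data known. Other pseudocounts, filters, scalings, fits and leaving out each pair were tried.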

Additional observations from a re-analysis of the deposited data

Results flagged for a closer look

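Of 18 genes of largest difference, 1 had a dose-matched difference far from its other 6 (Dixon's test at 95%, which chance passes for about 1 in 20 genes). *YDR524W-C*, a short open reading frame, differed by −3.18 on the log2 scale at 5 nM, against −1.37 to −0.05 at the other doses.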

How the results depend on the processing

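The number of genes called at 2-fold, 25 higher and 7 lower in experiment 1, was 12 and 1 with a pseudocount of 5, 12 and 4 with dose left out of the model, 14 and 2 with each library centred within bins of gene length, 19 and 4 at a mean of at least 5 RPKM, and 34 and 1 with limma-voom on recovered reads. Leaving out each pair gave 24 to 29 higher and 3 to 8 lower genes. At any size, the counts of 1798 higher and 510 lower genes became 797 and 1465 with median centring, 958 and 961 with quantile normalization, 512 and 119 without dose in the model, and 699 and 1147 with length-bin centring, and leaving out each pair gave 1511 to 1763 and 407 to 484. Only *SRL1* and *LSO2* of the 18 genes of largest difference kept their call in every alternative fitted to them. *TMA23* lost its call with a pseudocount of 5 (0.97), and the Ty3 frames without dose in the model. Slopes on dose gave 0 genes in limma in every alternative run.

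Length-bin centring turned the sign of *PYC1* (−0.0838), *KGD1* (−0.0823), *HMG1* (−0.0397), *HMG2* (−0.0509), *ACC1* (−0.0134), *FAS1* (−0.0597), *LYS2* (−0.0923), *RPN1* (−0.0275), *ADE6* (−0.0004), *GCV2* (−0.0082) and *PMR1* (−0.0413), all higher as deposited. The cause was not tested. With 1 culture per experiment, these data cannot show whether an offset would recur in other cultures. *YPL142C* had 27.5 RPKM in the 0 nM library of experiment 2, against 4.05 to 6.63 RPKM in the others of that experiment at the shared doses, and its difference was −0.76 without the 0 nM pair.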
